A study of Mus musculus with 6 samples.

Results

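The genes described here encode 10 secreted proteins of the extracellular matrix, chosen by symbol from the table of read counts: the adhesive glycoprotein Fn1 (fibronectin), the matricellular proteins Tnc, Postn, Sparc, Thbs1 and Thbs2, the proteoglycans Vcan and Lum, and the elastic fibre proteins Fbn1 and Eln. All 10 symbols were found among the 44788 genes listed, and all 10 were among the 16581 genes with enough reads to be tested. The tissue was endometrium, the inner lining of the uterus, from female mice of the outbred ICR strain with adenomyosis, a disorder in which endometrial glands and stroma grow into the muscle wall. In the agonist group, newborn mice were fed tamoxifen (2.7 µmol/kg, daily from day 2 to day 5 of life) and received, after 75 days, intraperitoneal Decapetyl (named so in the labels), an agonist of gonadotropin-releasing hormone (GnRH), at 1.5 µg per 100 g of body weight per day from day 3 to day 9 of estrus. The no-agonist group had the same tamoxifen and the solvent only. Mating followed 4 weeks after that treatment in both groups, and the endometrium was scraped off on the evening of pregnancy day 4. Each group had 8 mice, of which 3 libraries per group are in the table. The labels name 5 pregnant mothers bought and 16 mice in all, but no litter for a library, so libraries may share litters. Mice without adenomyosis were not analysed here, and the labels do not say whether a library came from 1 mouse or a pool, so each p-value rests on a spread between libraries that may be technical.

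Matricellular proteins sit in the matrix without being its main building material, and they adjust how cells attach, migrate and receive growth factors. Fibrillin microfibrils form the scaffold on which tropoelastin is deposited and cross-linked into elastic fibres, which let tissues such as the uterine wall and its vessels recoil. Versican and lumican are proteoglycans, one binding hyaluronan and the other controlling the thickness of collagen fibrils. In the uterus the matrix is remodelled in each cycle and around implantation.

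The libraries held 11720958 to 14104266 counts, and levels are given as CPM, that is, counts per 1000000 with library sizes scaled by TMM factors. The lowest count of any member in any library was 69 reads, for Thbs2 in agonist library 2, whose 95% exact Poisson interval of 53.7 to 87.3 reads covers counting error only. The smooth muscle markers, 12 of 12 of them tested, summed to 14273, 4072 and 4671 CPM in the agonist libraries and to 10359.7, 9379 and 23815 CPM in the no-agonist libraries, so the scraped tissue held muscle transcripts in all 6. The epithelial and stromal lists, 12 genes each, were also tested in full. Of 6 embryo and trophoblast markers, Cdx2, Nanog, Pou5f1 and Zscan4c had 0 reads in the 6 libraries. The other 2, Elf5 and Eomes, had reads in every library, and the list summed to 0.642, 5.03 and 5.00 CPM in the agonist libraries and to 0.679, 1.31 and 1.75 CPM in the no-agonist libraries. In bulk tissue, fewer cells of a type and less RNA per cell cannot be told apart.

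The comparison of the agonist group with the no-agonist group addresses GnRH agonist treatment given before mating, read around the time of implantation. None of the members passed the adjusted threshold. By edgeR's quasi-likelihood test with Benjamini-Hochberg adjustment, 0 of the 10 members and 0 of the 16581 genes tested (0%) had an adjusted p under 0.05, and DESeq2, edgeR's likelihood ratio test and limma-voom also called 0 of the 10. Over all genes these tools called 394, 268 and 0. At an unadjusted p under 0.05 in the quasi-likelihood test there were 0 of 10 members, beside 9.26% of all genes. Some of the other settings put Eln or Thbs2 under that threshold, and others left them above it. The 3 genes with positive log2 fold changes (agonist over no agonist) and the 7 with negative ones had a median of -0.17, beside a median of 0.02 over all genes tested, of which 52.2% were positive and 47.8% negative. That split of 3 and 7 was not stable. It was 0 and 10 on leaving out no-agonist library 2 (median -0.54), 1 and 9 on leaving out agonist library 1, and 5 and 5 with library totals alone. With library totals the median over all genes moved up as well, to 0.18, beside -0.01 for the members. Only Eln separated the groups, with all 3 agonist libraries below all 3 others, 1 of 10 members where 7.61% of all genes did so, and 0 of 10 members lay above in all 3, where 6.94% of all genes did. The edgeR adjusted p was 0.556 for Eln, 0.634 for Thbs2, 0.740 for Sparc, 0.875 for Tnc and 0.929 to 0.994 for the other 6. With 3 against 3 libraries the smallest p an exact permutation test can give is 0.1.

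**Figure D1:**
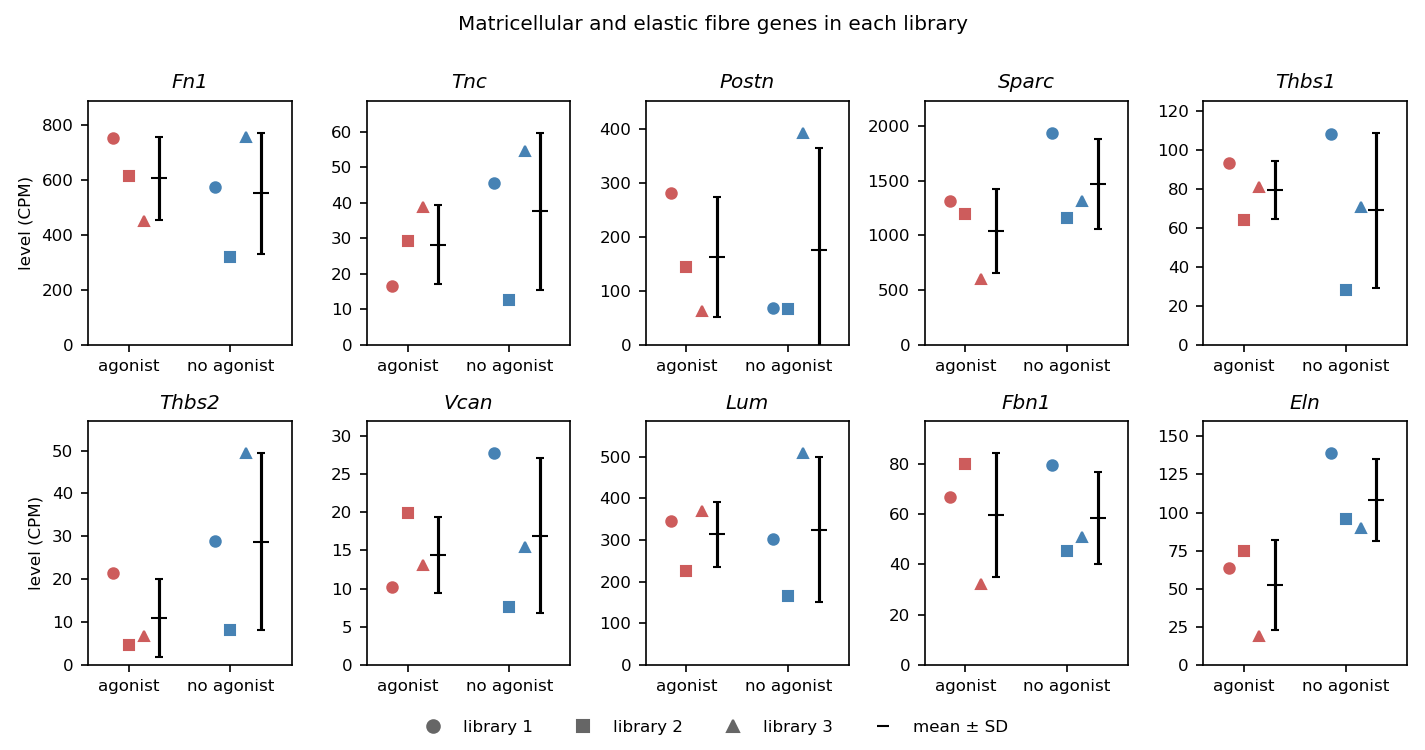
Level in CPM (linear axis from 0) of each member in the 3 agonist and the 3 no-agonist libraries, with the mean and SD of each group (an SD bar that would pass below 0 is cut there). The groups overlap for every member except Eln, whose highest agonist library, at 74.6 CPM, lies under the lowest no-agonist library, at 90.1 CPM.

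Eln, which encodes tropoelastin, the elastic core protein (chromosome 5, 134702593 to 134747323, GRCm38), had 63.9, 74.6 and 18.8 CPM in the agonist libraries, against 139, 95.5 and 90.1 CPM in the no-agonist libraries. Agonist library 3 was far below the other 5, and the gap between the groups was narrow at its nearest point. The means were 52.4 ± 29.6 and 108 ± 26.8 CPM (SD, n = 3 each), a log2 fold change of -1.05 ± 0.47 (SE) with a 95% interval of -2.14 to 0.05 and an edgeR adjusted p of 0.556. Without agonist library 3 the log2 fold change was -0.64, and without agonist library 2 it was -1.39, with adjusted p-values of 0.367 to 0.802 over the 14 alternatives. Its unadjusted p = 0.0581 in the quasi-likelihood test was 0.0300 by DESeq2, 0.0349 by edgeR's likelihood ratio test, 0.0377 by limma-voom, 0.0222 without the filter on low counts and 0.0334 without agonist library 2. Under the other alternatives it was above 0.05, from 0.0516 without agonist library 3 to 0.164 without no-agonist library 1. The exact permutation test on Eln gave p = 0.1, the smallest it can give here.

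Fbn1, fibrillin-1 of the microfibrils (chromosome 2, 125300594 to 125507993, GRCm38), had 67.0, 79.9 and 32.3 CPM in the agonist libraries, against 79.4, 45.2 and 51.1 CPM in the no-agonist libraries. The groups overlapped almost completely, with means of 59.7 ± 24.6 and 58.5 ± 18.3 CPM and a log2 fold change of 0.03 ± 0.36. Agonist library 3 was thus the lowest of the 6 for both elastic fibre genes. The interval of -0.82 to 0.87 for Fbn1 still allows a level 1.83 times as high, so an equal level was not shown. Its sign turned when any of 4 single libraries was left out (agonist library 2, giving -0.24, no-agonist library 2, giving -0.12, and agonist library 1 or no-agonist library 3, each giving -0.05) and by limma-voom (-0.030).

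Sparc, a collagen-binding glycoprotein also called osteonectin (chromosome 11, 55394500 to 55423183, GRCm38), was the most abundant member. It had 1312, 1196 and 597 CPM in the agonist libraries, against 1937, 1161 and 1314 CPM in the no-agonist libraries. Agonist library 3 was again the lowest, and agonist libraries 1 and 2 fell among the no-agonist libraries. The means were 1035 ± 384 and 1470.3 ± 411 CPM, with a log2 fold change of -0.51 ± 0.37 and an edgeR adjusted p of 0.740, and without agonist library 3 the log2 fold change was -0.23.

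Thbs2, thrombospondin-2, a secreted inhibitor of blood vessel growth (chromosome 17, 14665500 to 14694235, GRCm38), had the largest fold change of the 10 in size and also spanned the widest range, 10.5-fold between its lowest and highest library. It measured 21.5, 4.69 and 6.85 CPM in the agonist libraries, against 28.8, 8.09 and 49.4 CPM in the no-agonist libraries. Agonist library 1 lay above no-agonist library 2, so the groups overlapped. The means were 11.0 ± 9.15 and 28.8 ± 20.7 CPM, with a log2 fold change of -1.39 ± 0.75, an interval of -3.12 to 0.35 and an edgeR adjusted p of 0.634. The unadjusted p of Thbs2, 0.102 in the quasi-likelihood test, was 0.0453 by DESeq2, 0.0414 without the filter on low counts, 0.0169 without agonist library 1 and 0.0246 without no-agonist library 2. Leaving out 1 library moved the log2 fold change to between -2.31, without agonist library 1, and -0.75, without no-agonist library 3.

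Thbs1, thrombospondin-1, its close relative and an activator of latent transforming growth factor beta (chromosome 2, 118111876 to 118127133, GRCm38), had 93.1, 63.9 and 81.0 CPM in the agonist libraries, against 108, 28.3 and 70.5 CPM in the no-agonist libraries. The agonist libraries all lay within the range of the no-agonist libraries. The log2 fold change was 0.20 ± 0.43, and without no-agonist library 2, the lowest of the 6, it was -0.16.

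Postn, periostin, a collagen-binding matricellular protein (chromosome 3, 54361109 to 54391037, GRCm38), had 281, 145 and 61.9 CPM in the agonist libraries, against 68.7, 65.7 and 393 CPM in the no-agonist libraries. No-agonist library 3 was the highest of the 6, and the other 2 of that group were close to the lowest agonist library. The group means were 163 ± 111 and 176 ± 188 CPM, the no-agonist SD exceeding its mean, and the log2 fold change of -0.11 ± 0.79 had an interval of -1.95 to 1.73. It turned to 1.28 when no-agonist library 3 was left out (unadjusted p = 0.0649, edgeR adjusted p = 0.727, range over the alternatives 0.727 to 1.000) and to 0.28 when agonist library 3 was. With library totals alone it was 0.065 and by limma-voom 0.17.

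Tnc, tenascin-C, a modulator of cell adhesion (chromosome 4, 63959785 to 64047015, GRCm38), had 16.6, 29.3 and 38.9 CPM in the agonist libraries, against 45.7, 12.5 and 54.6 CPM in the no-agonist libraries. No-agonist library 2 was the lowest and the other 2 of its group the highest of the 6. Its log2 fold change was -0.41 ± 0.53 (edgeR adjusted p = 0.875). It was -0.82 when no-agonist library 2 was left out and -0.04 when no-agonist library 3 was.

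Fn1, fibronectin, a ligand of several integrins (chromosome 1, 71585520 to 71653200, GRCm38), had 753, 613 and 451 CPM in the agonist libraries, against 575, 318 and 757 CPM in the no-agonist libraries. Every agonist library lay within the range of the other group. The means were 606 ± 151 and 550.0 ± 221 CPM, with a log2 fold change of 0.14 ± 0.36. Its sign turned on leaving out no-agonist library 2 (-0.13) or agonist library 1 (-0.04).

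Lum, lumican, a small leucine-rich proteoglycan (chromosome 10, 97565128 to 97572703, GRCm38), had 346, 225 and 370.2 CPM in the agonist libraries, against 302, 165 and 509 CPM in the no-agonist libraries. Vcan, versican, the large hyaluronan-binding proteoglycan (chromosome 13, 89655312 to 89742509, GRCm38), had 10.3, 20.0 and 13.2 CPM in the agonist libraries, against 27.8, 7.57 and 15.5 CPM in the no-agonist libraries. Both proteoglycans had no-agonist library 2 as the lowest of the 6, and their agonist libraries lay inside the range of the other group. The log2 fold changes were -0.05 ± 0.41 for Lum and -0.23 ± 0.48 for Vcan. That of Lum turned to 0.43 on leaving out no-agonist library 3 and to 0.14 on leaving out agonist library 2, while library totals alone gave 0.13 and limma-voom 0.066. That of Vcan turned to 0.33 on leaving out no-agonist library 1.

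**Figure D2:**
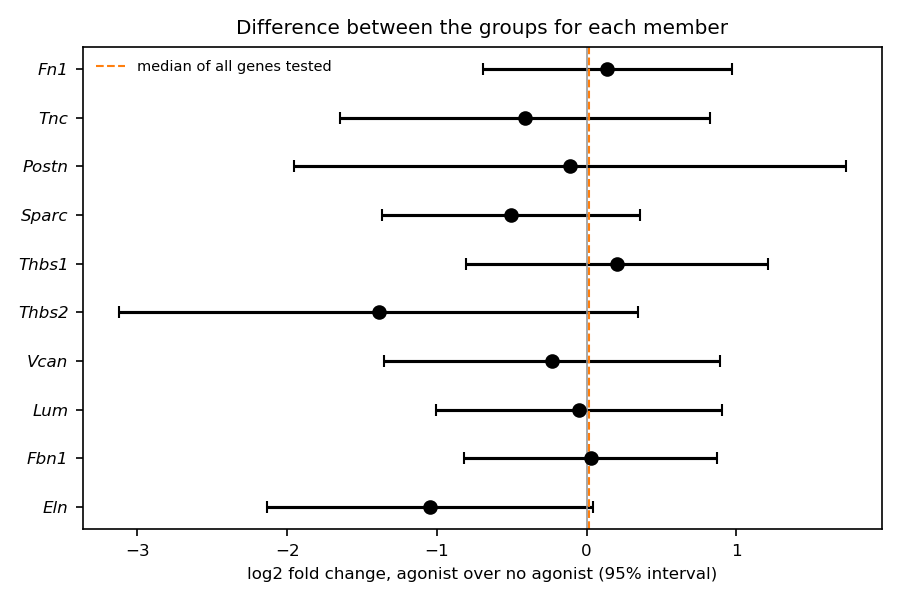
Log2 fold change of each member, agonist over no agonist, with its 95% interval from edgeR's quasi-likelihood fit and the median over all genes tested as a dashed line. All 10 intervals include 0. That of Eln reaches 0.05 at its upper end, and that of Postn, the widest, runs from -1.95 to 1.73.

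The members varied more within groups than most genes did. The within-group SD of log2 CPM was above the median of all tested genes, 0.37, in 10 of 10 members, and it was largest for Postn at 1.30 and for Thbs2 at 1.23, at the 96.0 and 95.2 percentiles of all genes tested. Sparc, with 0.52, had the smallest. Within the agonist group the highest library exceeded the lowest 1.46-fold for Thbs1 and 4.59-fold for Thbs2, and within the no-agonist group 1.54-fold for Eln and 6.11-fold for Thbs2, the ends of the range over the 10 members in each group.

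The promoters of Postn and Thbs2 are shown because these genes had the largest spread between libraries. Of the 10 members, 6 (Tnc, Postn, Sparc, Thbs2, Vcan and Fbn1) have windows in the RefSeq promoter table of build GRCm38.p6, and Fn1, Thbs1, Lum and Eln are named only. The 100 bases before the start site are chr3:54361007-54361106 on the + strand for Postn and chr17:14694263-14694362 on the - strand for Thbs2, with matches to TATANA or GGGCGG on either strand in capitals. Of the 2 windows listed for Postn, the one at the annotated gene start is shown.
Postn: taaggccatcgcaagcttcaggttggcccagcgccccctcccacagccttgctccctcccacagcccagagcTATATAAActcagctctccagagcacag
Thbs2: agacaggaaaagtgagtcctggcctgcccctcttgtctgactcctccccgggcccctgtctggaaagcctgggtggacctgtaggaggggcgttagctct
The capitals in Postn are overlapping matches to TATANA that begin 28 and 26 bases before the start site. Thbs2 has none in the 100 bases shown and a TATANA match on the opposite strand 126 bases before its start. Windows of 250 bases before to 50 after a start were searched on both strands. TATANA was found in 4 of the 8 windows of these members (Postn, Tnc and Thbs2), and in 24.7% of the 32851 windows of all genes. GGGCGG was found in 4 of the 8 windows (Fbn1, Tnc and Vcan) and in 35.7% of all windows. The AP-1 letters TGANTCA (7.81% of all windows), the Smad palindrome GTCTAGAC (0.213%) and the CArG box (1.63%) were found in none of the 8 windows of these 6 members. These matches are a description of the letters in the windows.

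Most of the members' variation ran between single libraries. No-agonist library 2 held the lowest level of 5 members (Fn1, Tnc, Thbs1, Vcan and Lum), and agonist library 3 that of 4 (Postn, Sparc, Fbn1 and Eln). The highest levels of Fn1, Tnc, Postn, Thbs2 and Lum were in no-agonist library 3, and no-agonist library 1 had those of Sparc, Thbs1, Vcan and Eln. On a log2 scale centred on the 6 libraries, the mean of the 10 members was 0.18, -0.06 and -0.52 in the agonist libraries and 0.46, -0.67 and 0.61 in the no-agonist libraries. By this mean the no-agonist group held both the lowest and the highest library. Their summed level was 2965, 2452 and 1672 CPM in the agonist libraries and 3310.3, 1906 and 3305 CPM in the no-agonist libraries. By that sum agonist library 3 was the lowest and no-agonist library 1 the highest.

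Marker levels of other cells also differed between these libraries. The smooth muscle list, centred in the same way, stood at 0.58, -1.08 and -1.01 in the agonist libraries and 0.13, -0.04 and 1.42 in the no-agonist libraries. It was lower in 12 of 12 genes by fitted log2 fold change, beside 47.8% of all genes tested. At an unadjusted p under 0.05 there were 0 of them, beside 5.09% of all genes on the lower side. Its highest library was no-agonist library 3, in which Fn1, Tnc, Postn, Thbs2 and Lum also peaked. The part of muscle in the levels of these members was not tested. Macrophage markers were lowest in no-agonist library 2, at -1.17, and highest in no-agonist library 1, at 1.07. By log2 fold change, 8 of 8 tested were negative (47.8% of all genes), 2 of them at an unadjusted p under 0.05 (5.09%). Mesothelial markers stood at 1.82, -1.86 and 0.26 in the agonist libraries and 0.66, -2.04 and 1.16 in the no-agonist libraries. Endothelial markers stood at 0.46, 0.24 and 0.08 in the agonist libraries and -0.07, -0.25 and -0.46 in the no-agonist libraries. Their log2 fold changes were positive in 8 of 8 (52.2% of all genes), 3 of them at an unadjusted p under 0.05 (4.17%). Pericyte markers ranged from -0.28 to 0.42. The epithelial list stood at -0.04, -0.37 and -0.73 in the agonist libraries and 0.22, 0.53 and 0.40 in the no-agonist libraries. The stromal list stood at -0.42, 0.43 and 0.25 in the agonist libraries and 0.48, -0.36 and -0.38 in the no-agonist libraries. Red blood cell markers ranged from 1.85 in agonist library 3 to -2.54 in no-agonist library 3, and the 5 platelet markers, of which Gp1ba had 0 reads, summed to 6.32 to 18.5 CPM in the agonist libraries and to 7.74 to 17.2 CPM in the no-agonist libraries. The part of these cells in the members' levels was not tested.

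**Figure D3:**
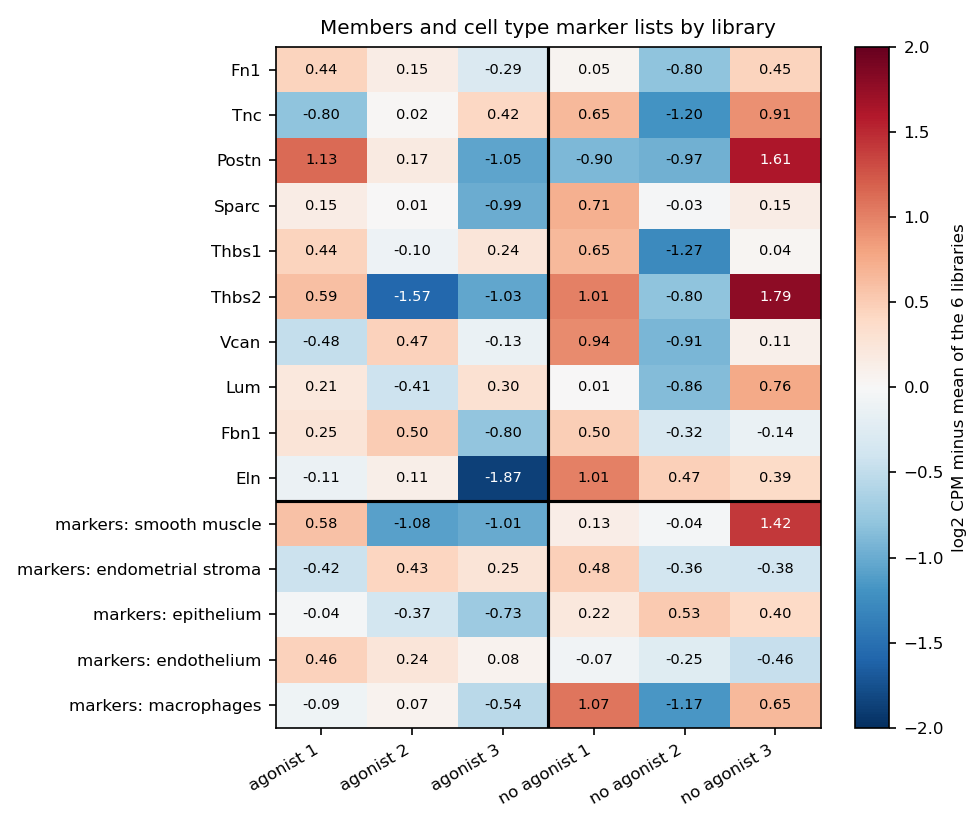
Level of each member (upper rows) and mean level of 5 cell type marker lists (lower rows) in each library, as log2 CPM minus the mean of the 6 libraries, with agonist libraries on the left. No-agonist library 2 is low for most members. Agonist library 3 is low for Eln (-1.87), Postn (-1.05), Thbs2 (-1.03), Sparc (-0.99) and Fbn1 (-0.80). No-agonist library 3 is high for Thbs2 (1.79) and Postn (1.61) and for the smooth muscle list (1.42).

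The pairs of members with the smallest distance between their levels were found across roles. By the root-mean-square distance between centred log2 CPM over the 6 libraries, the closest of the 45 pairs was Sparc with Fbn1 at 0.29, then Fn1 with Lum at 0.37 and Fn1 with Thbs1 at 0.43. Both elastic fibre genes lay 0.66 apart and both thrombospondins 1.10, so relatives by function were not the closest pairs by this distance. The distance can also grow with a gene's own spread between libraries, so it does not measure shared movement alone. The most distant pair was Postn with Eln at 1.25. The same distance to the mean of the members was smallest for Fn1, at 0.25, and largest for Thbs2, at 0.86. Among 12865 other genes with a mean of at least 5 CPM, the nearest to that mean were Emp3 (epithelial membrane protein 3) at 0.09, 4632428N05Rik at 0.11, the fibrillar collagen gene Col5a2 at 0.11, Pcbp3 at 0.15 and the signalling adapter Gab2 at 0.15. Col5a2 had 151, 118 and 71.3 CPM in the agonist libraries, against 169, 77.6 and 184 CPM in the no-agonist libraries.

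Ratios of 2 members within a library do not depend on the scaling between libraries. Of the 45 ratios, 6 separated the groups, 13.3%, beside 15.1% of the ratios of all pairs of tested genes with a read in every library, so the share was near the background. The reads of Fbn1 over those of Eln were 1.05, 1.07 and 1.72 in the agonist libraries, against 0.571, 0.473 and 0.567 in the no-agonist libraries, a log2 difference of 1.22. The no-agonist libraries were close together, and agonist library 3 stood above the other 2. The reads of Sparc over those of Fbn1 were 19.6, 15.0 and 18.5 in the agonist libraries, against 24.4, 25.7 and 25.7 in the no-agonist libraries, a log2 difference of -0.52. The reads of Thbs1 over those of Thbs2 were 4.33, 13.6 and 11.8 in the agonist libraries, against 3.74, 3.49 and 1.43 in the no-agonist libraries, a log2 difference of 1.74. Agonist library 1 was close to the no-agonist libraries in that ratio. The other 3 were Sparc over Eln, Thbs1 over Eln and Postn over Thbs2, each higher in the agonist libraries. These ratios were picked from the 45 for their separation and are given without a test.

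**Figure D4:**
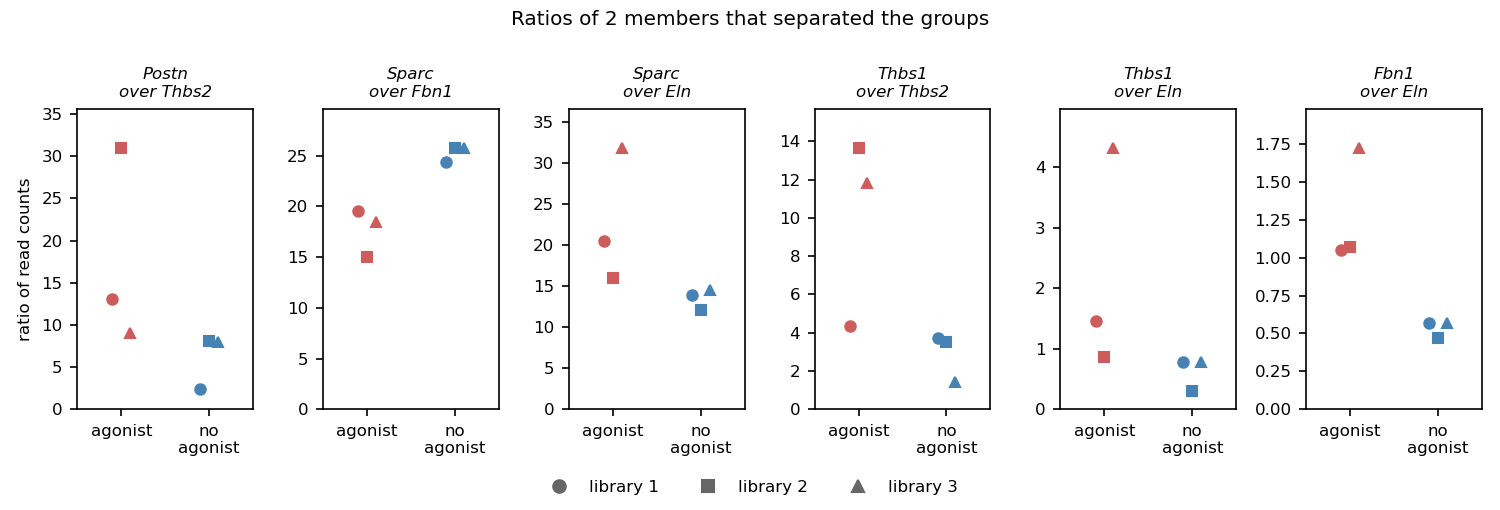
Ratio of the read counts of 2 members within each library (linear axes from 0), for the 6 of 45 ratios in which the groups did not overlap, agonist libraries on the left. Eln or Thbs2 is the denominator in 5 of them, and the sixth is Sparc over Fbn1, 15.0 to 19.6 in the agonist libraries against 24.4 to 25.7.

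Per kilobase of annotated exon, the order of the mean levels over the 6 libraries was Sparc at 331 CPM per kb, Lum at 131, Fn1 at 49.5, Postn at 19.5, Thbs1 at 12.2, Eln at 9.92, Fbn1 at 4.88, Tnc at 4.24, Thbs2 at 2.84 and Vcan at 1.09. Within each library Sparc was above Lum, Lum above Fn1 and Fn1 above Postn in 6 of 6. Further down, neighbours were not set apart beyond their spread. Postn was above Thbs1 in 4 libraries, Thbs1 above Eln in 5, Eln above Fbn1 in 5, Fbn1 above Tnc in 4, Tnc above Thbs2 in 4 and Thbs2 above Vcan in 5. Agonist library 3 was the one library in which Eln, at 2.32 CPM per kb, lay under Fbn1, at 2.66. The lengths come from GENCODE M21, and isoforms that a library does not express lengthen a gene on this scale.

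The genes that work with these proteins were examined in 6 lists. Of 84 listed genes 73 were tested, 31 with positive and 42 with negative log2 fold changes, and 0 passed edgeR's adjusted threshold. At an unadjusted p under 0.05, 3 of 73 were higher and 6 lower, beside 4.17% and 5.09% of all genes tested. The median log2 fold change was -0.28 for 20 elastic fibre partners, -0.08 for 15 other matricellular genes, 0.33 for 12 proteoglycan and hyaluronan genes, -0.25 for 5 versican-cleaving Adamts proteases, -0.28 for 18 receptors of the members and 0.09 for 3 transforming growth factor beta ligands.

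The elastic fibre partners had 5 positive and 15 negative log2 fold changes, where 47.8% of all genes tested were negative. At an unadjusted p under 0.05, 3 of the 20 were lower, beside 5.09% of all genes. In 3 of the 20, Lox and Loxl4 among them, all agonist libraries lay below all others, beside 7.61% of all genes. Lox, lysyl oxidase, which cross-links elastin and collagen, had 29.2, 27.7 and 16.7 CPM in the agonist libraries, against 50.6, 32.7 and 97.1 CPM in the no-agonist libraries. Like Eln, it was lower in every agonist library than in any other (log2 fold change -1.29 ± 0.41, edgeR adjusted p = 0.404). Its relative Loxl4 averaged 2.29 ± 0.927 and 7.60 ± 2.77 CPM, and its groups did not overlap either (log2 fold change -1.73 ± 0.48, edgeR adjusted p = 0.337; DESeq2 adjusted p = 0.0362, range over the alternatives 0.0362 to 0.740). Fbln1, fibulin-1, a component of elastic fibres, averaged 211 ± 51.4 and 326 ± 59.6 CPM (edgeR adjusted p = 0.516), and its groups overlapped.

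Of the 18 receptors, 5 had positive and 13 negative log2 fold changes, where 47.8% of all genes tested were negative. At an unadjusted p under 0.05, 1 was higher and 2 lower, beside 4.17% and 5.09% of all genes. All agonist libraries lay above all others for 1 (6.94% of all genes) and below for 3 (7.61%). Itgb6, the beta subunit of an epithelial integrin that binds fibronectin, had 23.6, 28.3 and 25.5 CPM in the agonist libraries, against 54.0, 44.4 and 43.4 CPM in the no-agonist libraries, well apart (log2 fold change -0.87 ± 0.19, edgeR adjusted p = 0.260). Its partner Itgav averaged 56.2 ± 5.35 and 84.7 ± 22.9 CPM (edgeR adjusted p = 0.503). Sdc4, syndecan-4, a heparan sulfate co-receptor for fibronectin, had 279, 333 and 442 CPM in the agonist libraries, against 199, 201 and 141 CPM in the no-agonist libraries (log2 fold change 0.96 ± 0.26, edgeR adjusted p = 0.332). DESeq2 called Itgb6 (adjusted p = 0.0117, range over the alternatives 0.0117 to 0.659) and Sdc4 (adjusted p = 0.0361, range 0.0361 to 0.740). The epithelial marker list was lower in 12 of 12 genes, beside 47.8% of all genes tested. Of these 12, 7 had an unadjusted p under 0.05, and 5 had all agonist libraries below all others. Over all genes tested these shares were 5.09% (lower at that p) and 7.61%. The part of epithelium in the Itgb6 difference was not tested.

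Among other matricellular genes, Tgfbi, a relative of Postn that binds integrins, had 81.6, 603 and 554 CPM in the agonist libraries, against 115, 29.8 and 47.8 CPM in the no-agonist libraries. Agonist library 1 lay below no-agonist library 1, and the log2 fold change was 2.69 ± 0.79, between 2.31 and 3.41 (3.41 without no-agonist library 1) when 1 library was left out (edgeR adjusted p = 0.362; DESeq2 adjusted p = 0.00660, range over the alternatives 0.00660 to 0.746). Smoc1, a relative of Sparc, averaged 57.9 ± 26.4 and 127 ± 43.6 CPM (log2 fold change -1.14 ± 0.39, edgeR adjusted p = 0.427), and Tnxb, tenascin-X, 111 ± 59.7 and 72.5 ± 29.9 CPM. Each therefore differed in size or sign from its relative among the members, Postn at -0.11, Sparc at -0.51 and Tnc at -0.41, without a test of that difference.

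Of the genes around the proteoglycans, the hyaluronan synthase Has3 averaged 2.63 ± 1.24 and 0.529 ± 0.254 CPM (log2 fold change 2.29 ± 0.61, edgeR adjusted p = 0.329, likelihood ratio test 0.0480, range over the alternatives 0.0480 to 0.736), with groups that did not overlap at levels of a few reads in the no-agonist libraries. Ogn, osteoglycin, a relative of Lum, had 123, 23.8 and 37.9 CPM in the agonist libraries, against 59.5, 49.9 and 429 CPM in the no-agonist libraries. As with Postn and Thbs2, no-agonist library 3 stood above all others, and without it the log2 fold change of -1.54 was 0.17. Hapln1, which links hyaluronan to versican, averaged 3.45 ± 3.82 and 1.04 ± 1.26 CPM. Agonist library 3, at 7.85 CPM, was far above the other 5, and the log2 fold change of Hapln1, 1.70 ± 1.08, was 0.25 with that library left out and 3.41 with no-agonist library 1 left out. The versican-cleaving proteases Adamts5, Adamts9 and Adamts1 had log2 fold changes of 0.58 ± 0.41, -0.48 ± 0.35 and -0.25 ± 0.25. The growth factors Tgfb3, Tgfb1 and Tgfb2 had 0.22 ± 0.30, 0.09 ± 0.40 and 0.07 ± 0.39.

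**Figure D5:**
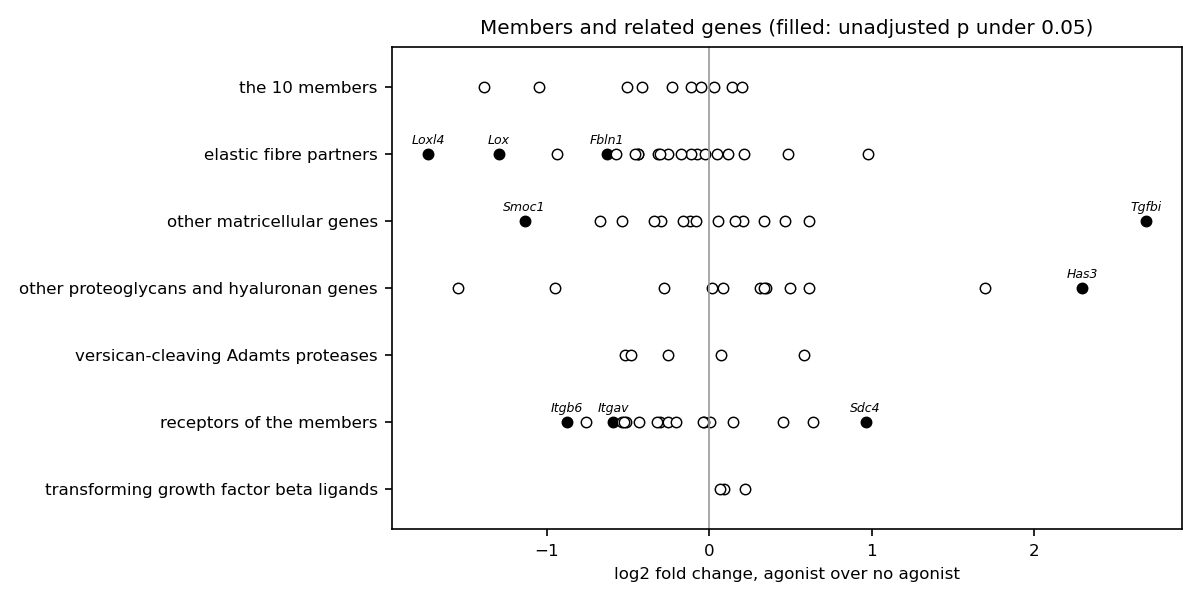
Log2 fold change, agonist over no agonist, of the 10 members and of the tested genes of 6 lists of related genes, filled and named where the unadjusted p was under 0.05. No member is filled, and 9 related genes are, Loxl4, Lox, Fbln1, Smoc1, Itgb6 and Itgav on the negative side and Tgfbi, Has3 and Sdc4 on the positive side.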

How the data were processed

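The authors' deposited table gives whole-number read counts per gene symbol for 6 libraries. The build mm10 (GRCm38) and the counting tool HTSeq 0.6.1 are named per the submitters' processing notes. Per the labels' protocols, RNA with an integrity number above 8 was made into single-end Ion Proton libraries. No source used here gives the aligner, the annotation or the strand setting. Without strand, reads of a member and of an antisense gene cannot be told apart. In GENCODE M21, genes on the opposite strand share exons with Fn1, Tnc, Thbs1, Fbn1 and Eln, and the 2 of these genes that the table lists, Apol7d and 8030451A03Rik, had at most 3 reads in a library.

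Counts were analysed in R 4.3.3 with edgeR 4.0.16: filterByExpr at its defaults, TMM factors and the quasi-likelihood F-test of agonist against no agonist without covariates, with Benjamini-Hochberg adjustment over the 16581 genes tested. Log2 CPM used a prior count of 2. Alternatives were DESeq2 1.42.0 on the same filtered genes, limma-voom (limma 3.58.1), edgeR's likelihood ratio test, other scalings and filters, and leaving out each library. For named genes other than the members, these alternatives were added after seeing the data. Named genes were the 10 members, the 3 with the smallest p and any with an unadjusted p under 0.05 in each list, and the 5 genes nearest to the members' mean. The members and lists were chosen with earlier results of these data known. The test was tried on simulated data.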

Additional observations from a re-analysis of the deposited data

How the results depend on the processing

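The count of 0 members past the adjusted threshold was 0 under all 14 alternatives, and their median log2 fold change stayed between -0.54 and -0.05 when 1 library was left out and between -0.18 and -0.01 under the other settings. Over all genes, the 0 calls became 394 with DESeq2, 268 with edgeR's likelihood ratio test and 36 without a filter on low counts, and 0 to 1 when 1 library was left out. With library totals alone, the median over all genes was a log2 fold change of 0.18, against 0.02 with TMM factors. Eln, Thbs2, Sparc and Tnc kept a negative log2 fold change under all 14. Other directions turned: limma-voom gave 0.17 for Postn, 0.066 for Lum and -0.030 for Fbn1, and library totals alone 0.065 for Postn and 0.13 for Lum. With 1 library left out, the log2 fold change ranged from -0.13 to 0.45 for Fn1, -0.24 to 0.33 for Fbn1, -0.37 to 0.43 for Lum, -0.75 to 1.28 for Postn, -0.16 to 0.68 for Thbs1, -0.57 to 0.33 for Vcan, -0.17 to 0.40 for Tgfb1, -0.23 to 0.32 for Tgfb2 and -2.53 to 0.17 for Ogn, and the cause was not tested. No paired analysis was possible because the labels give no litter, batch or pairing for a library. Loxl4, Has3 and Hapln1 were not tested under the stricter filter. Depth limits the lowest values most, 4.69 CPM for Thbs2 in agonist library 2 having a counting interval of 3.65 to 5.93 CPM.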
